A study of Mus musculus with 4 samples.

Results

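The nuclear genes of oxidative phosphorylation are described here in dendritic cells and lymphocytes of the mouse mesenteric lymph node. They were taken by name, as every gene whose symbol starts with Nduf, Sdh, Uqcr, Cox4, Cox5, Cox6, Cox7, Cox8 or Atp5, with symbols containing -ps left out. The rule found 97 of 32289 genes and left out 1, Ndufb1-ps. By role they were 36 subunits of complex I, 4 of complex II, 8 of complex III, 20 of complex IV (with Ndufa4 counted there), 17 of complex V and 12 assembly factors of complexes I and II. No measured value entered the rule.

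Complexes I to IV of the inner mitochondrial membrane pass electrons from NADH and succinate to oxygen and, except complex II, pump protons, and complex V, the ATP synthase, uses the returning protons to make ATP. A few core subunits are encoded by mitochondrial DNA, while most subunits and all assembly factors are nuclear genes translated in the cytosol and imported. Dividing and activated immune cells are known to raise mitochondrial translation and respiration, and some subunits have isoforms used only in particular tissues.

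The cells came from untreated 15-day-old mice of the genotype Gm38411-iCre-hCD2 R26 tdTomato, in which the fluorescent protein tdTomato marks a cell in which Cre has acted, and its descendants, while human CD2 (hCD2) is the surface reporter. The sort took tdTomato+ cells that were CD11c+ and MHC-II+ but CD3- and B220-, and split them into an hCD2+ and an hCD2- fraction. The 12 mice each carried their own hashtag antibody and gave cells to both fractions, so the mouse is the replicate. Each fraction was 1 droplet 3′ library, so fraction and library preparation cannot be told apart.

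After filtering, 7099 hCD2+ cells (median 17486 UMIs) and 4762 hCD2- cells (median 23846 UMIs) remained, and 20 barcodes were called as cells in both libraries. Each mouse contributed between 5914558 and 17966298 UMIs to a fraction. Cells were clustered without the 97 genes, and clusters were named from marker lists, with the ending -like. T cell-like and NK or ILC1-like cells were found in spite of the CD3- CD11c+ gate. Cluster 10, which was placed with the Prdm16/Aire DC-like cells, held 8 markers of CCR7 migratory DCs beside 4 of its own class. A class was used for a mouse where it had at least 10 cells, and levels are compared over the 14 class and fraction pairs with at least 3 such mice. That leaves out hCD2- monocyte or macrophage-like cells (1 mouse, 17 cells) and hCD2+ NK or ILC1-like cells (1 mouse, 10 cells), whose values are given where they fall outside a stated range. Also left out are 25 hCD2- Prdm16/Aire DC-like, 32 hCD2+ pDC-like and 8 hCD2+ stromal-like cells, since no mouse had 10 of them.

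Of the 97 genes, Cox8b and Cox8c had no UMI, and 4 in all, these included, had fewer than 100. Together the 97 gave 2639936 UMIs, of which the 10 most counted genes held 29.4%. Cox4i1, the common form of the largest nuclear-encoded subunit of cytochrome oxidase, was the most counted with 108843 UMIs. It lies on chromosome 8 at 120668222 to 120674207, plus strand, in GRCm38. Uqcrh, the hinge protein of complex III (chromosome 4, 116066965 to 116075071, minus strand), had 70576 UMIs. Ndufa4, named for complex I but a subunit of complex IV (chromosome 6, 11900292 to 11907497, minus strand), had 57938. Levels of single genes are given as CPM, UMI counts scaled to the same total in every class and mouse. Because libraries were read from the 3′ end, counts were not divided by gene length, and levels are compared between cells and not between genes.

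Promoter sequences are shown for 4 genes, because respiratory subunit genes are known targets of ETS factors and NRF1 and because these 4 show each of those motifs or neither. RefSeq sequences of GRCm38.p6 were matched for 79 of the 97 genes. The 80 bases before the start are printed 5′ to 3′ on the gene's strand, with the motif in capitals. The label none refers to the printed bases only. The RefSeq start of Ndufa4 lies within the gene span given above, so part of its printed bases falls inside that span.
Uqcrh, chr4:116075071-116075150, minus strand, ETS: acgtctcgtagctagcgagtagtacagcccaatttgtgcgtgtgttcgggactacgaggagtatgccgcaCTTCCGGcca
Sdhb, chr4:140961191-140961270, plus strand, NRF1: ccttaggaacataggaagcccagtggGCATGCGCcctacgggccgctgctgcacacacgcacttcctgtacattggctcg
Atp5g2, chr15:102671048-102671127, minus strand, NRF1 on both strands, overlapping: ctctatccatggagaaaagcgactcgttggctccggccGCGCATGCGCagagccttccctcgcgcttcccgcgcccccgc
Ndufa4, chr6:11907451-11907530, minus strand, none: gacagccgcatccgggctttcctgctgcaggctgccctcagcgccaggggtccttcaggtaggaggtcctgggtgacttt

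In windows from 250 bases before to 50 after the start, both strands searched, the ETS letters CCGGAAG were in 22 of 79 members (27.8%) and in 9.93% of all 27025 genes with a promoter entry. The NRF1 letters GCATGCGC were in 12 members (15.2%) against 3.05% of genes, and the YY1 letters AAGATGGCG in 8 (10.1%) against 1.64%. Expressed genes hold these letters more often than all genes do. Among 4958 tested genes outside the set at the members' levels the shares were 22.3%, 6.35% and 4.15%. The members with any of the 3 motifs and those with none had medians on the same side of 0 in each comparison between classes. In Prdm16/Aire DC-like against ILC3/LTi-like cells, for example, the median log2 difference was 0.34 over 35 members with a motif and 0.43 over 40 without.

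The summed level of the 97 genes, as a share of a class's UMIs, separated the classes of the hCD2+ fraction into high and low groups. It was 1.28% ± 0.196 (SD, n = 11 mice) in T cell-like cells, 1.28% ± 0.0873 (n = 7) in monocyte or macrophage-like cells and 1.27% ± 0.121 (n = 3) in cDC1-like cells. These 3 lay within 1 SD of each other. It was 1.15% ± 0.0748 (n = 8) in cDC2-like cells and 1.05% ± 0.0472 (n = 12) in Prdm16/Aire DC-like cells, whose mice overlapped. ILC3/LTi-like cells had 0.848% ± 0.0215 (n = 12), and no mouse's value there reached the lowest of the Prdm16/Aire DC-like cells, 0.981%. CCR7 migratory DC-like cells, dendritic cells that have left the tissue for the node, were lowest at 0.794% ± 0.0410 (n = 12), and overlapped with ILC3/LTi-like cells. In such sums deep cells weigh more. The median share per hCD2+ cell was 0.910% in T cell-like, 1.11% in monocyte or macrophage-like and 1.21% in cDC1-like cells. It was 1.09% in cDC2-like, 1.02% in Prdm16/Aire DC-like, 0.835% in ILC3/LTi-like and 0.793% in CCR7 migratory DC-like cells. T cell-like cells were thus not among the highest by that measure.

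In the hCD2- fraction cDC1-like cells were highest among classes with at least 3 mice, at 1.29% ± 0.0909 (n = 11), and the 1 mouse with monocyte or macrophage-like cells had 1.41%. NK or ILC1-like cells had 1.08% ± 0.121 (n = 12), cDC2-like cells 1.05% ± 0.0714 (n = 12) and pDC-like cells 1.00% ± 0.0878 (n = 5), neighbours within 1 SD of each other. T cell-like cells followed at 0.929% ± 0.0459 (n = 12), also within 1 SD of pDC-like cells. ILC3/LTi-like cells had 0.787% ± 0.0332 (n = 11), with no mouse as high as any T cell-like value, and CCR7 migratory DC-like cells 0.723% ± 0.0508 (n = 12). Among classes with at least 3 mice, both fractions thus placed these last 2 classes at the bottom. The median share per hCD2- cell was 1.24% in cDC1-like, 0.967% in NK or ILC1-like, 0.979% in cDC2-like and 0.969% in pDC-like cells. It was 0.871% in T cell-like, 0.759% in ILC3/LTi-like and 0.713% in CCR7 migratory DC-like cells. Lower medians were seen where no mouse had 10 cells, at 0.484% in 25 hCD2- Prdm16/Aire DC-like and 0.607% in 8 hCD2+ stromal-like cells. Droplets of 10 to 100 UMIs, which hold free RNA, had 0.829% in the hCD2+ and 1.09% in the hCD2- library.

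**Figure D1:**
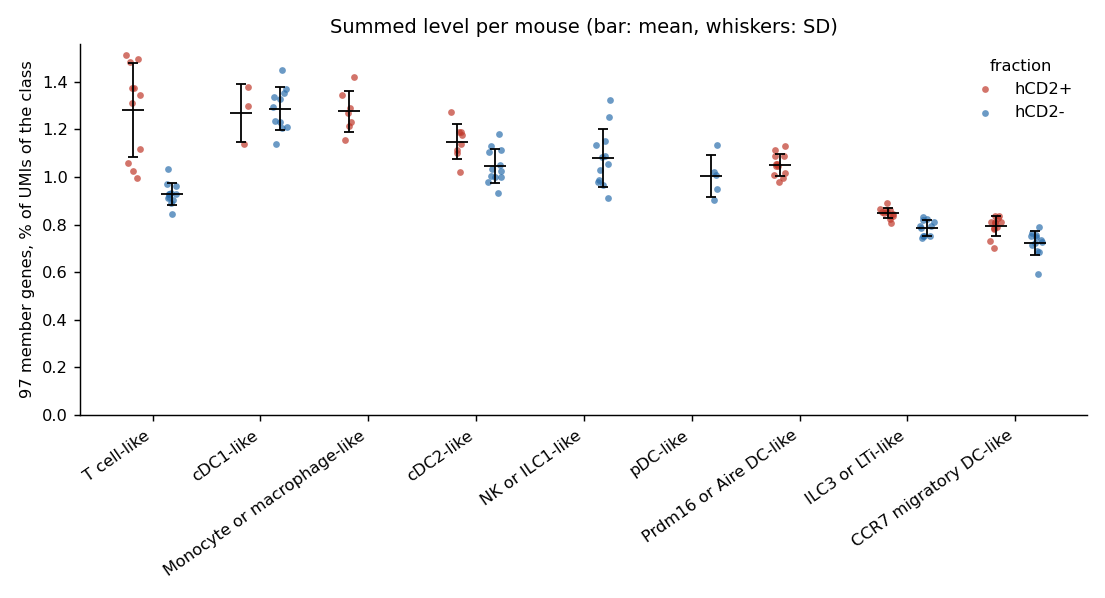
Summed UMIs of the 97 genes as a percentage of all UMIs of each class (vertical axis), with 1 point per mouse, red for hCD2+ and blue for hCD2-, and the mean with SD in black. Classes with fewer than 3 mice in a fraction are not drawn. ILC3/LTi-like and CCR7 migratory DC-like cells are the lowest drawn classes of both fractions, and T cell-like cells of the hCD2+ fraction spread the most between mice.

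Nuclear and mitochondrially encoded subunits did not follow the same order. The 13 mitochondrial genes took 1.71% ± 0.0680 of UMIs in hCD2- T cell-like cells (n = 12), where the ratio of nuclear to mitochondrial subunit UMIs was 0.545 ± 0.0293. In hCD2- cDC1-like cells that ratio was 1.03 ± 0.0770 (n = 11). Prdm16/Aire DC-like cells had 0.800 ± 0.0372 and hCD2+ ILC3/LTi-like cells 0.703 ± 0.0105 (n = 12 each).

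The complexes did not share 1 order either. For complex I, hCD2+ CCR7 migratory DC-like cells (0.176% ± 0.0103 of UMIs) lay below ILC3/LTi-like cells (0.234% ± 0.00829). For complex IV the order was the opposite, 0.260% ± 0.0142 against 0.225% ± 0.00607 (n = 12 mice each). Complex IV in these CCR7 migratory DC-like cells ranged from 0.233% to 0.280% and in ILC3/LTi-like cells from 0.214% to 0.236%, so the ranges overlapped only at their ends.

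Over 14 class and fraction means, 86 genes averaged at least 16 CPM, and their median coefficient of variation was 27.8%. CCR7 migratory DC-like cells of the hCD2- fraction were the lowest point for 52 of these 86, and hCD2+ T cell-like cells the highest for 29. These are means of summed counts, in which deep cells weigh more. Among pairs of the 86 the median Pearson correlation was 0.62 and 89.4% were positive, as a description over 14 points that share libraries and depth. Uqcrh varied least, with a coefficient of 12.6%. Ndufa4 was most like Atp5j, the F6 coupling subunit of ATP synthase (r = 0.98), and Cox4i1 most like Atp5l, the g subunit (r = 0.87). The best partner of Uqcrh, Ndufs4, reached only 0.46.

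Over the same 14 means Ndufa4 ran from 123 ± 7.24 CPM in hCD2- CCR7 migratory DC-like cells (n = 12) to 327 ± 77.6 in hCD2+ T cell-like cells (n = 11), with 332 in the 1 mouse with hCD2- monocyte or macrophage-like cells. Cox4i1 was lowest in hCD2- ILC3/LTi-like cells at 268 ± 22.4 (n = 11) and highest in hCD2+ monocyte or macrophage-like cells at 610 ± 88.4 (n = 7), followed by Prdm16/Aire DC-like cells at 573 ± 38.7 (n = 12), whose values overlapped. Uqcrh lay between 217 ± 9.64 (hCD2+ cDC1-like, n = 3) and 316 ± 27.8 (hCD2+ T cell-like, n = 11), with 326 in the 1 mouse with hCD2+ NK or ILC1-like cells.

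Prdm16/Aire DC-like cells were compared with 3 other classes of the hCD2+ library, each class summed per mouse. Against ILC3/LTi-like cells, 89 members were tested and 74 were higher and 5 lower at an edgeR adjusted p under 0.05, in a comparison that called 82.8% of all genes (41.1% higher, 41.7% lower). For 33 members, 30 of them higher, no mouse of 1 class reached the other, as for 48.8% of all genes. The members' median log2 difference was 0.42. All 12 tested complex IV genes and all 8 of complex III were higher, against 31 of 36 in complex I, 15 of 17 in complex V and 3 of 4 in complex II. With library size alone in place of TMM scaling, the median of all genes moved from -0.02 to -0.22, the split became 55 higher and 14 lower, and 11 of the called members changed from higher to lower, among them Uqcrc1 of complex III, Atp5a1, Atp5g3 and Atp5j of complex V and 5 of complex I.

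Cox5a, a core-binding subunit of cytochrome oxidase, had a lowest, median and highest value of 300.2, 348 and 422 CPM in the 12 mice's Prdm16/Aire DC-like cells and of 109, 122 and 130 in their ILC3/LTi-like cells. The groups did not overlap, and the log2 difference was 1.78 ± 0.06 (SE, edgeR adjusted p = 3.73e-21). Ndufa1, a small membrane subunit needed to assemble complex I, had 154, 215 and 316 against 59.0, 64.5 and 73.3, again apart (2.0 ± 0.09, edgeR adjusted p = 2.37e-18). Cox4i1 had 494, 579 and 651 against 306, 323 and 347 (1.02 ± 0.04, edgeR adjusted p = 9.65e-21).

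The other complexes and an assembly factor were also represented. Sdhb, the iron-sulfur subunit of succinate dehydrogenase, was higher by 0.62 ± 0.06, and Uqcrb, a small subunit of complex III, by 0.78 ± 0.05. Atp5l was higher by 0.73 ± 0.04 and the assembly factor Ndufaf7, a methyltransferase acting on complex I, by 1.40 ± 0.09. Sdhc, a membrane anchor of complex II, fell by 0.28 (SE 0.06) with 33.1 ± 2.91 against 46.8 ± 4.36 CPM. All of these had edgeR adjusted p-values under 0.05. For Ndufa4 (0.42 ± 0.04) and Uqcrh (0.32 ± 0.04), which also rose, the mice's values overlapped.

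Counts for other lists in this comparison stand beside those of the members. Of 13 mitochondrially encoded subunits 11 were higher and 1 lower, of 78 mitochondrial ribosomal protein genes 48 and 10, and of 10 uncoupling and antioxidant genes 8 and 0. Of 19 tested biogenesis regulators 3 were higher and 11 lower. Proliferation genes were higher in 8 of 9 tested, and their part in the members' difference was not tested beyond leaving dividing cells out.

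Against CCR7 migratory DC-like cells, 52 of 89 members were higher and 11 lower (71.7% of all genes were called, 38.4% higher and 33.3% lower), with a median of 0.26. The mice did not overlap for 45 members and for 29.3% of all genes. Complex I had 28 higher and 2 lower (median 0.48), while complexes III, IV and V had medians of 0.05, 0.02 and 0.06. With library size alone the median of all genes moved from 0.06 to 0.32, 75 members were higher and 3 lower, and 7 called members, Cox5a and Cox7c among them, changed from lower to higher.

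Ndufa5, a peripheral subunit of complex I, had 26.0, 33.9 and 41.0 CPM as lowest, median and highest against 6.79, 9.76 and 15.4, without overlap (log2 difference 1.37 ± 0.12, edgeR adjusted p = 3.32e-11). Ndufv2, which carries an iron-sulfur cluster of the NADH-binding module, went the other way with 67.1, 73.2 and 85.5 against 89.9, 101 and 131, also apart (-0.71 ± 0.06, edgeR adjusted p = 1.61e-11). Complex I genes therefore did not move as 1 unit. Ndufa1 (1.25 ± 0.10), Uqcr11 (0.71 ± 0.09), Cox4i1 (0.27 ± 0.05) and Ndufaf7 (2.10 ± 0.13) were higher, and Sdhaf2, which inserts the flavin into complex II, was lower (-1.17 ± 0.09), all at edgeR adjusted p-values under 0.05.

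Against cDC2-like cells (8 mice with both), the direction was mostly the other one, with 14 members higher and 30 lower of 89, where 60% of all genes were called, 30% in each direction. For 12 members the mice did not overlap, against 28.8% of genes. Complex V held 11 of the lower calls (1 higher) and complex II 3 of 4. Atp5g2, 1 of 3 genes for the same c-ring subunit, had 266, 286 and 306 CPM against 395, 421 and 465, without overlap (-0.46 ± 0.06, edgeR adjusted p = 3.11e-06). Ndufa1 was nevertheless higher, at 157, 214 and 272 against 61.6, 86.9 and 115 (1.46 ± 0.12, edgeR adjusted p = 1.72e-09), as were Uqcrh (0.55 ± 0.08), Cox4i1 (0.53 ± 0.08, with mice that overlapped) and Sdhaf1 (1.72 ± 0.16), the factor that matures the iron-sulfur subunit of complex II. Dividing cells differed beside this: 56.6% of hCD2+ cDC2-like and 18.1% of Prdm16/Aire DC-like cells had at least 10 proliferation UMIs, and all 14 tested proliferation genes were lower. With library size alone 12 members were higher and 47 lower. Without a filter on low counts 15 members were higher and 14 lower.

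The Prdm16/Aire DC-like class was not uniform. Its largest cluster, cluster 3, had a summed level of 1.18% ± 0.0424 and the second largest, cluster 2, of 0.918% ± 0.0748 (n = 12 mice each). Cluster 2 held 6 markers of CCR7 migratory DCs beside 7 of its own class, and the part of this in the differences was not tested. Of 86 members tested 61 were higher in cluster 3 and 8 lower (67.9% of all genes were called, 34.5% higher and 33.4% lower), and 46 did not overlap, against 25.4% of genes. With library size alone the median of all genes moved from 0.04 to 0.28, with 75 members higher and 5 lower. Cluster 3 also held more dividing cells, 30.3% against 2.38% with at least 10 proliferation UMIs, at medians of 34783 and 26370 UMIs per cell. Fewer members, 29, were called when cells with at least 3 such UMIs were left out. That limit kept 5451 of 11861 cells of both libraries. The share of all genes called there is not given, so the fall is not read as particular to the members. Cox5a stood against the rest with 198, 223 and 247 CPM in cluster 3 and 432, 489 and 653 in cluster 2, apart in all 12 mice (-1.49 ± 0.07, edgeR adjusted p = 2.57e-17). Cox4i1 (-0.48 ± 0.06), Ndufb4 (-0.92 ± 0.09) and Sdhaf1 (-1.06 ± 0.07) were lower with it. Ndufs3 (0.90 ± 0.10), Sdhd (0.79 ± 0.08), Atp5c1 (0.73 ± 0.07) and Ndufaf7 (1.89 ± 0.14) were higher, all at edgeR adjusted p-values under 0.05.

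**Figure D2:**
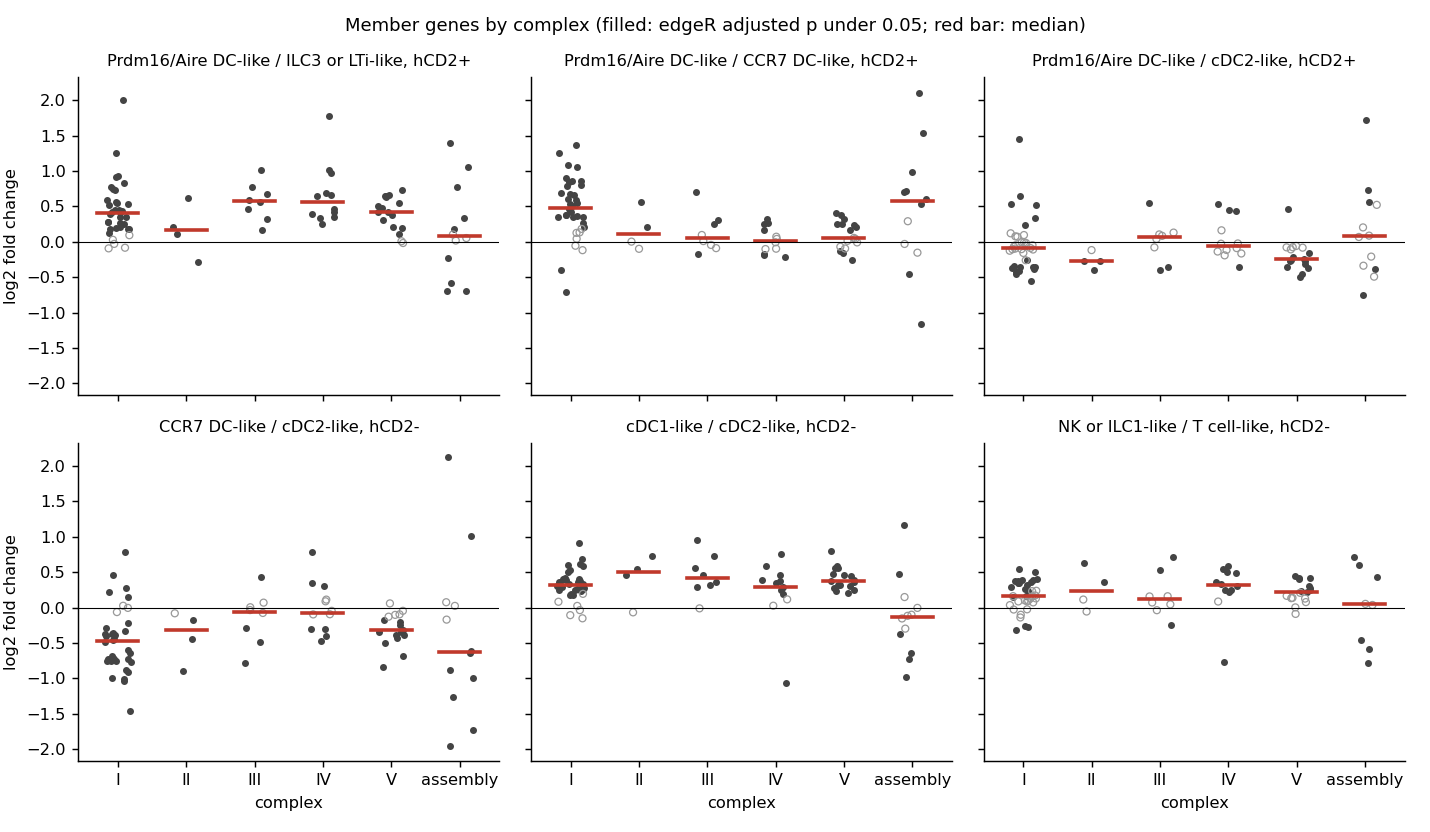
Log2 fold changes (vertical axis) of the tested members by complex (horizontal axis) in 6 comparisons between classes, the first class over the second. Filled points have an edgeR adjusted p under 0.05 and red bars are medians. Complex I has the largest shift of the 5 complexes between Prdm16/Aire DC-like and CCR7 migratory DC-like cells, with a median of 0.48.

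Among dendritic cells of the hCD2- library, CCR7 migratory DC-like cells had 11 members higher and 57 lower than cDC2-like cells of 89 tested (78.4% of all genes were called, 37.1% higher and 41.3% lower), with a median of -0.35. Mice did not overlap for 58 members and for 43.5% of genes. Complex I had 28 of 36 lower and 5 higher, complex V 12 of 17 lower. With library size alone the median of all genes moved from -0.05 to -0.44 79 members were lower and 4 higher, and 5 called members (Cox4i1, Cox7c, Ndufa1, Ndufa3 and Ndufs4) changed from higher to lower. Other energy genes moved alongside: 13 of 16 genes of the citric acid cycle, 12 of 16 tested of glycolysis and 55 of 78 of the mitochondrial ribosome were lower. All 15 proliferation genes were lower too, and 30 members were called when cells with at least 3 proliferation UMIs were left out. That limit kept 5451 of 11861 cells of both libraries. The share of all genes called there is not given, so the smaller count is not read as particular to the members.

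Ndufa5 had 8.15, 11.1 and 15.3 CPM in CCR7 migratory DC-like and 28.9, 41.0 and 52.5 in cDC2-like cells, without overlap (-1.46 ± 0.10, edgeR adjusted p = 1.23e-13). Sdhc (-0.89 ± 0.10), Uqcr11 (-0.79 ± 0.10), Ndufa4 (-0.48 ± 0.05) and Ndufaf7 (-1.96 ± 0.15) were lower as well. Sdhaf1 was the clearest exception, at 82.7, 93.7 and 115 against 21.3, 28.9 and 40.5 (2.12 ± 0.08, edgeR adjusted p = 1.25e-19), and Cox5a was higher by 0.78 ± 0.06 with mice that overlapped.

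In the same library cDC1-like cells, which cross-present antigen, had 69 of 90 members higher than cDC2-like cells and 5 lower, in 11 mice, where 56.9% of all genes were called (28.4% higher, 28.5% lower). For 10 members the mice did not overlap, against 16.9% of genes. All 17 complex V genes, 30 of 36 of complex I and 7 of 8 of complex III were higher. Uqcrb had 198, 225 and 264 CPM against 98.1, 120 and 143 (0.96 ± 0.07, edgeR adjusted p = 3.07e-12) and Cox7b 210, 261 and 296 against 133, 157 and 187 (0.75 ± 0.06, edgeR adjusted p = 6.03e-11), both without overlap. Ndufa12 (0.92 ± 0.10), Sdhb (0.73 ± 0.09) and Atp5g3 (0.80 ± 0.07) were higher, and Sdhaf1 was lower (-0.98 ± 0.13). Uqcrh had 218 ± 17.7 against 228 ± 11.9 (-0.01 ± 0.06, edgeR adjusted p = 0.88). No mitochondrially encoded subunit of 13 was higher and 3 were lower. Mitochondrial ribosomal genes were higher in 44 of 78.

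NK or ILC1-like cells had 42 of 85 members higher than T cell-like cells and 8 lower, where 56.5% of all genes were called (29.2% higher, 27.3% lower). For 3 members the mice did not overlap, against 13.6% of genes. The mitochondrially encoded subunits went the opposite way, with 12 of 13 lower. Uqcr11, the smallest subunit of complex III, had 59.4, 75.6 and 122 against 33.9, 49.6 and 56.0 CPM, without overlap (0.71 ± 0.10, edgeR adjusted p = 7.25e-07). Ndufb7 (0.55 ± 0.09) and Sdhd (0.64 ± 0.10) were higher. Cox7a2l, which joins complexes III and IV in supercomplexes, was lower at 160, 198 and 234 against 298, 317 and 352 (-0.77 ± 0.06, edgeR adjusted p = 1.13e-11). Proliferation genes were higher in 11 of 14 tested, and 19 members, 11 higher and 8 lower, were called without cells of at least 10 proliferation UMIs. That limit kept 9882 of 11861 cells of both libraries. The share of all genes called there is not given, so the smaller count is not read as particular to the members.

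The isoform genes gave the sharpest contrasts. Cox6a2, the heart and muscle form of a cytochrome oxidase subunit, had 509 ± 71.6 CPM in hCD2- pDC-like cells (n = 5), where it made up 78.0% of Cox6a1 and Cox6a2 UMIs. At least 1 UMI of it was seen in 90 of 104 hCD2- pDC-like cells (86.5%), in 30 of 32 hCD2+ ones (93.8%) and in none of 3039 hCD2+ ILC3/LTi-like cells, at median depths of 24244.5, 23226.5 and 16693 UMIs per cell. That 0 among 51611273 UMIs allows a level of up to 0.0581 CPM, for counting error only. NK or ILC1-like cells of the hCD2- library had 24.8 ± 19.1 (n = 12), with a UMI in 49 of 425 cells (11.5%). Monocyte or macrophage-like cells had 5.46 ± 10.3 (n = 7), and the other classes with at least 3 mice at most 1.59. The 1 mouse with hCD2+ NK or ILC1-like cells had 12.4, from 3 UMIs. These levels describe the data and were not tested.

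**Figure D3:**
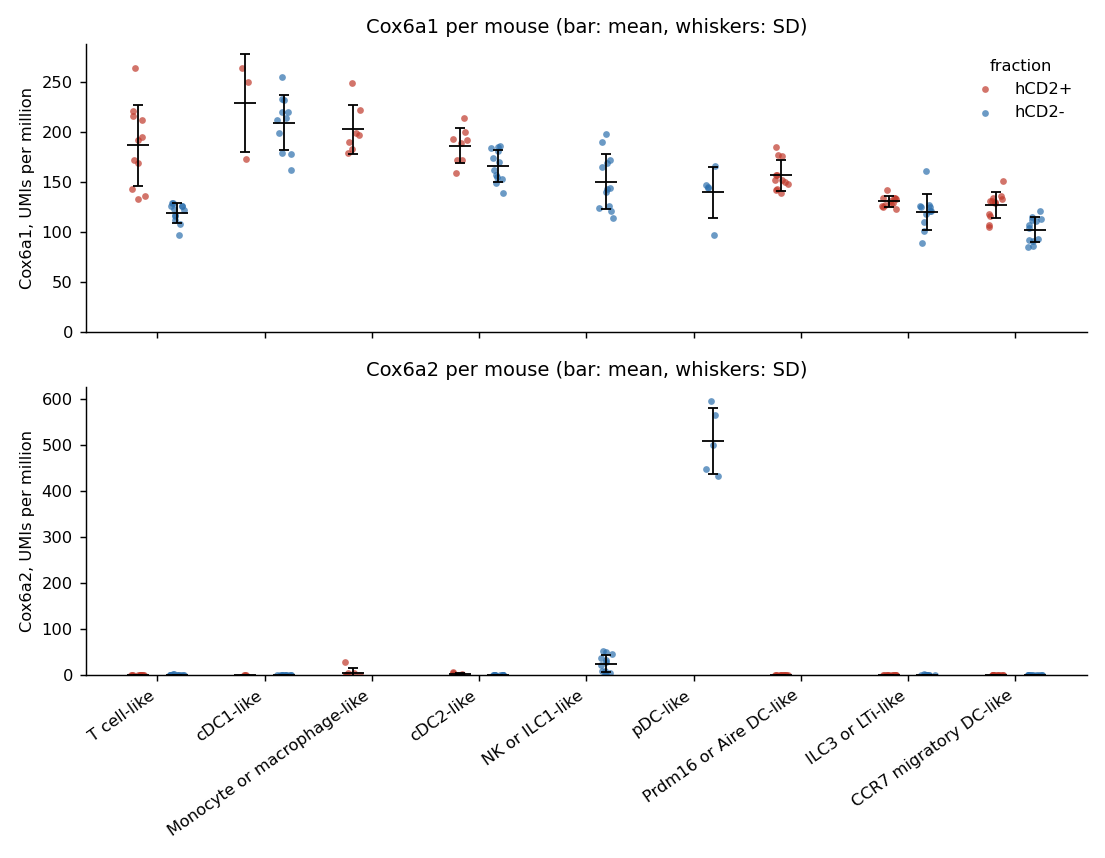
Cox6a1 (upper panel) and Cox6a2 (lower panel) in CPM on linear axes that start at 0, with 1 point per mouse, red for hCD2+ and blue for hCD2-, and the mean with SD. Cox6a1 is present in every class, while Cox6a2 stands at 509 in pDC-like cells and 24.8 in NK or ILC1-like cells.

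Cox4i2, the lung and hypoxia form of Cox4i1, was counted at 2.15 ± 0.947 in hCD2+ and 2.50 ± 1.60 in hCD2- CCR7 migratory DC-like cells (n = 12 each), with at most 0.749 in any other class with at least 3 mice. The 1 mouse with hCD2- monocyte or macrophage-like cells had 2.21, from 1 UMI. Cox6b2, the testis form of Cox6b1, was highest in cDC2-like cells among those classes, at 13.1 ± 4.0 (hCD2+, n = 8) and 7.92 ± 2.06 (hCD2-, n = 12).

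The question of the sort was how hCD2+ and hCD2- cells differ. Over all cells the summed level was 0.967% ± 0.0365 and 0.986% ± 0.0295 (n = 12 mice each). Of 91 members tested 26 were higher and 36 lower in hCD2+ cells, where 67.8% of all genes were called, 33.9% in each direction. For 14 members the mice did not overlap, against 18.2% of genes. The fractions held different classes, so the comparison was repeated within ILC3/LTi-like, CCR7 migratory DC-like and T cell-like cells. Prdm16/Aire DC-like cells could not be compared, since no mouse had 10 such hCD2- cells.

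Within ILC3/LTi-like cells, 6 of 89 members were higher and 3 lower (4.33% of all genes were called, 1.84% higher and 2.49% lower), and with the mouse as a block 1 was higher and 2 lower. Within CCR7 migratory DC-like cells 29 of 84 were higher and 5 lower (18.1% of all genes, 10.2% higher and 7.92% lower), with a median of 0.18. No member separated the mice without overlap, against 1.03% of genes. Complex V had 10 of 17 higher, among them Atp5g1 (0.55 ± 0.11, edgeR adjusted p = 0.000367). When cells were thinned to 5000 UMIs, which kept 10297 of 11861 cells of both libraries, 14 members were called. The share of all genes called after thinning is not given, so the fall is not read as particular to the members. In a model that took the difference between these 2 fraction effects, 0 of 89 members were called by edgeR (4.41% of all genes, 2.75% more positive and 1.66% more negative), and 7 had an unadjusted p under 0.05.

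Single genes repeated across classes. Ndufa3, a membrane-arm subunit of complex I, was lower in hCD2+ cells in all 4 comparisons within a population, counting cluster 5, which showed fewer than 3 markers of any class. In that cluster 2 of 81 members were higher and 4 lower, where 5.84% of all genes were called (3.04% higher, 2.79% lower). Ndufa3 had 51.6, 57.7 and 62.1 CPM in hCD2+ and 48.6, 107 and 142 in hCD2- ILC3/LTi-like cells, which overlapped (-0.85 ± 0.11, edgeR adjusted p = 9.54e-06). The difference was -0.59 ± 0.08 in CCR7 migratory DC-like cells, -0.34 ± 0.10 in T cell-like cells and -0.48 ± 0.10 in cluster 5. Droplets of 10 to 100 UMIs went the same way, with 54.9 in the hCD2+ and 121 in the hCD2- library, and the part of free RNA in the result was not tested. The call was lost in some single clusters, at -0.53 in cluster 0 of the ILC3/LTi-like cells (edgeR adjusted p = 0.206) and -0.23 in cluster 7 of the CCR7 migratory DC-like cells (edgeR adjusted p = 0.489). It was kept in cluster 8, which held 794 of the 937 hCD2- CCR7 migratory DC-like cells, at -0.57 (edgeR adjusted p = 9.29e-05).

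Atp5k, the e subunit of ATP synthase, was lower in 3 of the 4. In ILC3/LTi-like cells it had 24.6, 30.9 and 35.1 against 38.5, 56.1 and 84.5 without overlap (-0.90 ± 0.11, edgeR adjusted p = 9.93e-07), the 1 member without overlap, against 0.567% of all genes. The difference was -0.61 ± 0.10 in CCR7 migratory DC-like cells and -1.12 ± 0.15 in cluster 5, where the mice did not overlap, as for 0.453% of genes. Free-RNA droplets held 40.1 and 91.2 CPM. Within cluster 0 it was -0.70 (edgeR adjusted p = 0.0893). Cox7c was lower in 3 of the 4 comparisons.

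Cox4i1 was higher in hCD2+ cells in all 4. Free-RNA droplets held 377 CPM in the hCD2+ and 448 CPM in the hCD2- library, and the part of free RNA in the result was not tested. Cox4i1 had 306, 323 and 347 CPM against 238, 264 and 311 in ILC3/LTi-like cells, overlapping at the edge (0.24 ± 0.05, edgeR adjusted p = 0.00206). It was higher by 0.18 ± 0.05 in CCR7 migratory DC-like cells, 0.47 ± 0.08 in T cell-like cells and 0.34 ± 0.09 in cluster 5. When cells were thinned to 5000 UMIs all 4 calls were lost, at 0.28, 0.23, 0.24 and 0.37 in the same order (edgeR adjusted p between 0.0518 and 0.145). With the mouse as a block the call in cluster 5 was lost (0.33, edgeR adjusted p = 0.0541), and in T cell-like cells without those of at least 10 proliferation UMIs the difference was 0.13 (edgeR adjusted p = 0.502). Ndufb10 was also higher in all 4, and Ndufb11 rose in ILC3/LTi-like cells (0.23 ± 0.06, edgeR adjusted p = 0.0268). These comparisons share the 2 libraries, so 4 classes are not 4 independent tests of the fractions.

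**Figure D4:**
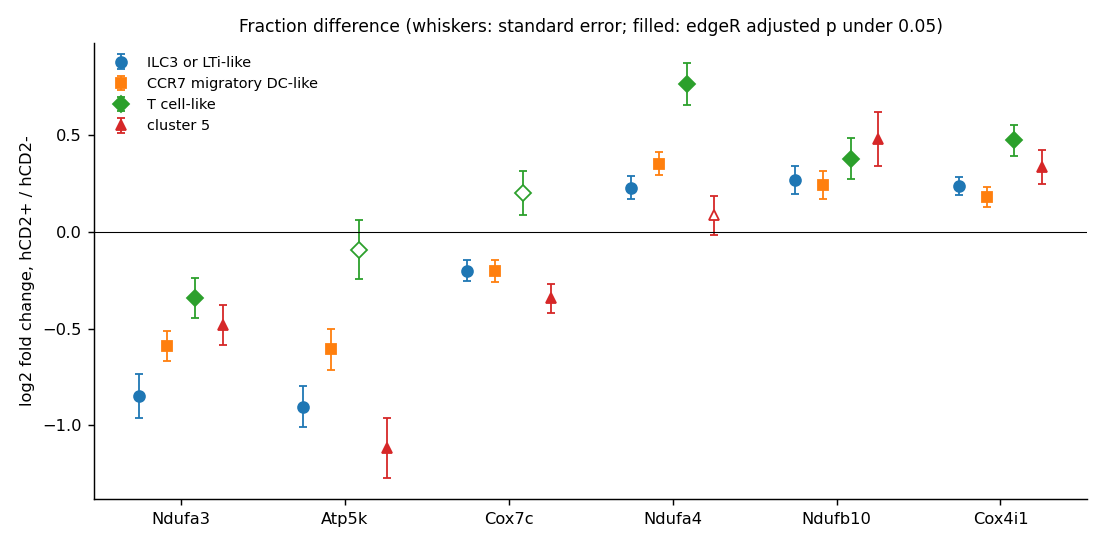
Log2 fold changes of hCD2+ over hCD2- cells (vertical axis) for 6 members (horizontal axis) in 4 populations, with the standard error, filled where the edgeR adjusted p is under 0.05. Ndufa3 lies below 0 and Cox4i1 and Ndufb10 above 0 in all 4 populations, and Atp5k and Cox7c are not called in T cell-like cells.

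T cell-like cells showed the widest difference between fractions. In hCD2+ cells 66 of 87 members were higher and 2 lower (39.4% of all genes were called, 22.8% higher and 16.6% lower), with a median of 0.54. For 6 members the mice did not overlap, against 0.877% of genes. Sdhb had 85.8, 133 and 147 CPM in 11 hCD2+ mice and 54.3, 74.8 and 82.0 in 12 hCD2- mice (0.74 ± 0.10, edgeR adjusted p = 4.31e-06), and Cox5a 195, 304 and 397 against 120, 152 and 192 (0.98 ± 0.11, edgeR adjusted p = 2.61e-07). Neither gene's groups overlapped. Uqcr11 (1.00 ± 0.15) and Ndufa4 (0.77 ± 0.11) were higher with overlap, and Cox7a2l was lower (-0.25 ± 0.07, edgeR adjusted p = 0.00521). Uqcrh differed by 0.12 ± 0.06 (edgeR adjusted p = 0.112).

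Other lists moved in the same comparison, and their part in the members' difference was not tested. Of 77 mitochondrial ribosomal genes 62 were higher, and of 15 proliferation genes 14. Cells with at least 10 proliferation UMIs were 22.1% of the hCD2+ and 13.1% of the hCD2- T cell-like cells. Dividing T cell-like cells had a summed level of 1.65% ± 0.163 and the others 0.935% ± 0.0537 in 3 of 3 hCD2+ mice with both. Without such cells 1 member was higher and 2 lower, and after thinning each cell to 5000 UMIs 9 were higher and 1 lower. Fewer cells of both libraries remained in these settings, 9882 and 10297 of 11861. The shares of all genes called in them are not given here, so the falls are not read as particular to the members.

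The class held 3 clusters. Within cluster 21, marked by Cd8b1 and Themis, the summed level was 0.929% ± 0.0742 (n = 9) and 0.936% ± 0.0406 (n = 12), and 0 of 80 members were higher and 2 lower by edgeR, where 0.977% of all genes were called. Within cluster 19, marked by Cd40lg and Izumo1r, it was 1.16% ± 0.0818 (n = 4) and 0.859% ± 0.0827 (n = 12), and 24 of 80 were higher and 0 lower, where 4.37% of all genes were called. Cluster 20, led by Ccl20, held 51 of the 344 hCD2+ and 29 of the 963 hCD2- T cell-like cells. Of these 98.0% and 100% had at least 10 proliferation UMIs, and the median share of the 97 genes per cell was 1.73% and 1.04%. No fit was made within it. Cells with at least 10 proliferation UMIs were 6.31% and 13.8% of cluster 21 and 14.9% and 5.45% of cluster 19, hCD2+ first. Whether these clusters differ in the fraction effect was not tested. Against the fraction effect in CCR7 migratory DC-like cells, that in T cell-like cells was more positive for 45 of 87 members and more negative for 1 (16% of all genes, 10.9% more positive and 5.16% more negative). Ndufs8, an iron-sulfur subunit of complex I, differed by 0.93 ± 0.15 (edgeR adjusted p = 1.26e-05) and Cox7a2l by -0.41 ± 0.09 (edgeR adjusted p = 0.00149). Without cells of at least 10 proliferation UMIs 1 member was called, and it was more negative. The share of all genes called in that fit is not given, so this fall is not read as particular to the members.

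**Figure D5:**
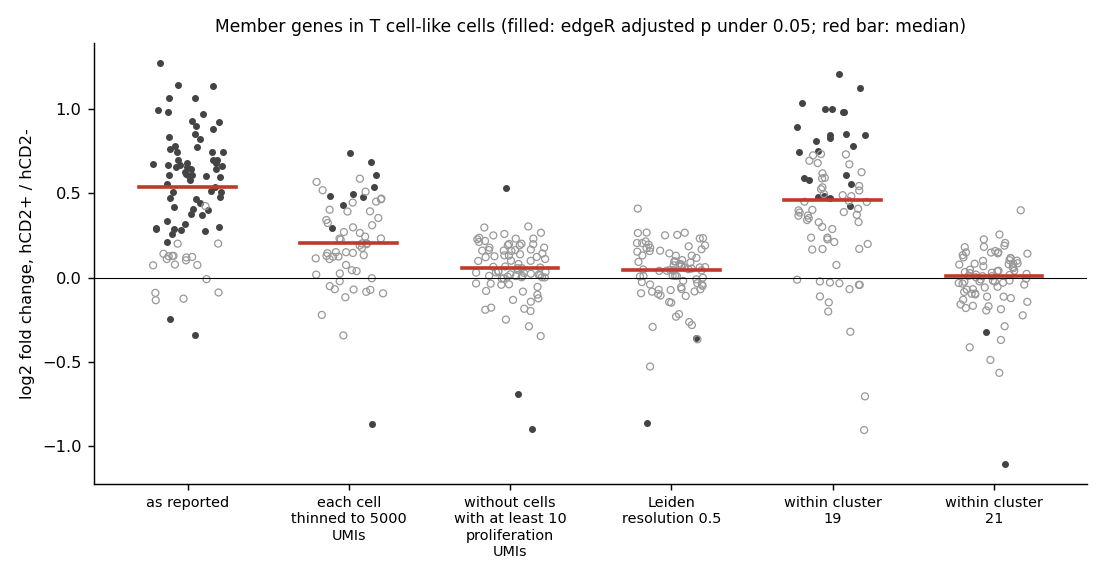
Log2 fold changes of hCD2+ over hCD2- T cell-like cells (vertical axis) for each tested member, as reported and under 5 other settings (horizontal axis). Filled points have an edgeR adjusted p under 0.05 and red bars are medians. The median is 0.54 as reported and near 0 without dividing cells, at a Leiden resolution of 0.5 and within cluster 21. At resolution 0.5 the named T cell-like class is mostly the Cd8b1 and Themis group (756 of its cells, beside 37 in the other cluster), since the clusters marked by Cd40lg (542 cells) and Ccl20 (323 cells) have no class name there.

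Dividing cells, those with at least 10 proliferation UMIs, had higher levels in other classes too, in every mouse with at least 10 cells of each kind. This limit is a count and not a share, so deeper cells pass it more easily. The part of depth was not tested. In Prdm16/Aire DC-like cells the summed level was 1.22% ± 0.0706 in dividing and 0.997% ± 0.0416 in other cells (11 of 11 mice). In hCD2- NK or ILC1-like cells it was 1.27% ± 0.105 and 0.918% ± 0.0824 (9 of 9), and in hCD2- cDC2-like cells 1.14% ± 0.0838 and 0.941% ± 0.0545 (12 of 12).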

How the data were processed

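Cells were profiled with the 10x Chromium Single Cell 3′ kit v4, per the labels' protocols. The authors deposited unnormalized UMI count matrices, made with Cell Ranger 8.0.1 on mm10 per the submitters' processing notes. The deposited hashtag tables give each called cell its assignment and the probability of it, a fraction from Cell Ranger. A cell needed 1 hashtag, 500 or more genes and no more than 10% of UMIs from mitochondrial genes, and hashtag multiplets were removed as doublets. Cells were clustered with scanpy 1.11.5 (Leiden), with the 97 genes and the other lists left out, and named from marker lists. Sums of counts over the cells of a class in 1 mouse and 1 fraction, if 10 or more, were tested with edgeR 4.0.16 (TMM scaling, filterByExpr, quasi-likelihood test, Benjamini-Hochberg adjusted p under 0.05 over all genes). Levels are CPM or percent of UMIs. The members and lists were chosen with earlier results of these data known.

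Named genes were, per comparison and role, up to 2 called members of largest change in the direction with more calls and up to 1 against it, with log2 CPM averaging 4 or more, and also Ndufa4, Cox4i1, Uqcrh, Sdha to Sdhd, isoform genes, the members of highest and lowest level and those without counts. Ndufb10, Cox7c and the genes that changed sign with the scaling were named after their values were seen. The hashtag marks the same mouse in both libraries, per the design text. Deviations of the 12 mice from their fraction means correlated between libraries at 0.00717 to 0.356 (mean 0.208, 9 over 0.1). The same hashtag was the best match for only 6 of the 12, and pairs of different hashtags averaged -0.0188. DESeq2 1.42.0, other scalings and filters, thinning, leaving out dividing cells and the mouse as a block were tried. On simulated counts edgeR recovered 88.1% of genes changed 1.5-fold for Prdm16/Aire DC-like against ILC3/LTi-like cells (10966 genes) and 66.7% for the T cell-like fractions (7859 genes). At 1.25-fold it recovered 57.6% and 16.4%, and 4.76% and 6.45% of called genes were false. For the ILC3/LTi-like fractions (9796 genes) it recovered 68.7% at 1.5-fold and 20.9% at 1.25-fold, and 7.38% of called genes were false. Only 198, 199 and 197 genes were changed, so the simulation does not test the scaling where most genes are called. The comparison of fractions in Prdm16/Aire DC-like cells, and its interaction, could not be fitted.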

Additional observations from a re-analysis of the deposited data

Results flagged for a closer look

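The fraction effect differed between classes by a test of the difference itself. In edgeR's model, 46 of 87 members had a fraction effect in T cell-like cells that differed from that in CCR7 migratory DC-like cells, 45 of them more positive, with a median log2 difference of 0.37, in a fit that called 16% of all genes. Without cells of at least 10 proliferation UMIs 1 member was called, and it was more negative. The share of all genes called in that fit is not given, so the fall is not read as particular to the members. Both fraction effects use the same 2 libraries, and their difference was not refitted with the mouse as a block. No outlying mouse was found in the 10 groups of 4 to 10 mice that were examined. Groups of 11 or 12 mice, as used in this result, were not among them.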

How the results depend on the processing

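Of 123 alternatives for 14 counts of called members 90 stayed within 1.5 times with the same direction, and of 670 for 69 single genes 609 kept direction and call. Counts whose direction turned were as follows. Leaving out cells with at least 3 proliferation UMIs gave 45 (29 higher, 16 lower) over all cells and 1 in T cell-like cells, and leaving out those with at least 10 gave 64 (35, 29), 3 in T cell-like cells and 1 in the T cell-like against CCR7 difference. In T cell-like cells 2 were called at a Leiden resolution of 0.5, which leaves the clusters marked by Cd40lg and Ccl20 without a class name, and 2 within cluster 21. In ILC3/LTi-like cells DESeq2 gave 9 (4, 5), the mouse as a block 3 (1, 2) and thinning 3. Without a low-count filter Prdm16/Aire DC-like against cDC2-like cells gave 29 (15, 14). The other 11 counts refitted with the block stayed within 1.5 times. The differences between fraction effects were not refitted with it.

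Larger counts were 15 without TMM in ILC3/LTi-like cells and 2 for the ILC3 against CCR7 difference without cells of at least 10 proliferation UMIs. Smaller counts under thinning were 14 (CCR7 fraction), 10 (T cell-like), 40 (Prdm16/Aire against CCR7), 19 (against cDC2), 46 (cDC1 against cDC2), 22 (NK against T) and 0 (cluster 5, edgeR, 2 of 20 at an unadjusted p under 0.05). Without cells of at least 3 proliferation UMIs they were 5 (ILC3), 12 (CCR7 fraction), 32 (Prdm16/Aire against CCR7), 30 (CCR7 against cDC2), 29 (clusters 3 and 2) and 0 (cluster 5, edgeR, 1 of 57 at an unadjusted p under 0.05). With the limit at 10 they were 39 (cDC1 against cDC2), 19 (NK against T) and 3 (cluster 5). Others were 20 without a filter (CCR7 fraction), 4 within cluster 7, 1 within cluster 0 and 24 within cluster 19. Thinning kept 10297, the limit of 3 kept 5451 and the limit of 10 kept 9882 of 11861 cells. Shares of all genes called are not given for these counts, and the cause was not tested.

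In T cell-like cells Uqcr11 turned to -0.25 (limit of 3), -0.11 (resolution 0.5) and -0.19 (cluster 21), Cox7a2l to 0.050 (resolution 0.5), 0.064 (limit of 10) and 0.14 (cluster 21), and Cox4i1 to -0.018 (cluster 21). Summed levels moved by over 1 SD in 30 of 63 alternatives. Thinning gave 1.05% in hCD2+ T cell-like, 1.05% in monocyte or macrophage-like and 0.999% in Prdm16/Aire DC-like cells. With mitochondrial and ribosomal protein UMIs left out of the total, hCD2+ levels were 1.58% (T), 1.49% (cDC1), 1.43% (monocyte), 1.32% (cDC2), 1.16% (Prdm16/Aire), 0.943% (ILC3) and 0.870% (CCR7), and hCD2- levels 1.52% (cDC1), 1.28% (NK), 1.20% (cDC2), 1.15% (T), 1.14% (pDC), 0.874% (ILC3) and 0.794% (CCR7). The limit of 3 gave 0.859% (hCD2+ T), 0.890% (Prdm16/Aire), 0.816% (hCD2- T), 0.833% (hCD2- cDC2) and 0.660% (hCD2- CCR7). The limit of 10 gave 0.902% (hCD2+ T), 1.17% (monocyte), 0.997% (Prdm16/Aire), 0.875% (hCD2- T), 1.13% (hCD2- cDC1), 0.941% (hCD2- cDC2) and 0.896% (NK). Without cluster 10, Prdm16/Aire DC-like cells had 1.10%. The limit of 3 could not be fitted for Prdm16/Aire against cDC2, cDC1 against cDC2 and NK against T, nor the limit of 10 for the first of these, nor resolution 0.5 for clusters 3 and 2.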

Other observations

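Cluster 1, with no class name, had a median of 2477.5 UMIs per cell and held 1016 cells. The 97 genes took 0.127% ± 0.0153 of its hCD2+ UMIs (n = 12 mice) and the mitochondrially encoded subunits 3.34% ± 0.164, a nuclear to mitochondrial ratio of 0.0380 ± 0.00565. Its cells are part of the comparison over all cells and of no comparison within a class. Clusters 16 and 22 also had no class name and low UMI counts, with medians of 3133 and 2120 per cell. Their shares were higher, at 1.57% ± 0.0906 (n = 7 mice) and 1.67% ± 0.303 (n = 4) of hCD2- UMIs.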
